A study of Rattus norvegicus with 8 samples.

Results

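The circadian clock genes described here were 10 genes, chosen by the RefSeq identifier that the array files give each feature. They were *Per1* (NM_001034125), *Per2* (NM_031678), *Per3* (NM_023978), *Arntl* (NM_024362, named *Bmal1* in RefSeq), *Clock* (NM_021856), *Nr1d1* (NM_145775), *Nr1d2* (NM_147210), *Dbp* (NM_012543), *Tef* (NM_019194) and *Bhlhe40* (NM_053328). All 10 were found, among 36958 identifiers on the array, and they had 11 probes of 41012 since *Per3* had 2. The question was if the lavender oil (LO) group and the control group differed in the phase of the clock the same way in liver, spleen and small intestine.

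The circadian clock is a loop of transcription that most cells carry. The proteins of *Clock* and *Arntl* pair up and activate genes with E-boxes in their promoters, among them the *Per* and *Cry* genes, *Nr1d1*, *Nr1d2*, *Dbp*, *Tef* and *Bhlhe40*. The PER and CRY proteins then repress the pair, and the NR1D1 and NR1D2 proteins (REV-ERB alpha and beta) repress *Arntl* through ROR elements. DBP and TEF activate genes with D-boxes. In rodent liver the transcripts of *Dbp*, *Nr1d1* and *Arntl* swing widely over the day, and *Arntl* peaks at the opposite part of the day from *Nr1d1* and *Dbp*. A shift of phase can therefore move *Arntl* against *Nr1d1* and *Dbp*, depending on the hour of sampling. Clocks of liver and gut also follow the time of feeding.

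Male rats of 7 weeks, 6 in each group, received either LO at 5 mg/kg in 10% ethanol or 10% ethanol alone, into the stomach, daily for 13 days. The labels name the strain both as Wistar and as F334. Dosing took place between 11:25 and 13:50 in a cycle of 12 h light and 12 h dark with lights on at 8 AM, and dissection was on day 14. The hour of dissection, and whether both groups were dissected at the same hour, are not given in the sources used here. All rats of the control group had the ethanol vehicle, so both groups share it. RNA of the rats of a group was pooled before labelling, and each array compared an LO pool with a control pool. Small intestine and spleen had 1 pool comparison each and the liver had 2, labelled Group1 and Group2 and called pool 1 and pool 2 here after the study's methods. The labels do not say how these differ. Each pool comparison was read on 2 arrays, with LO in Cy5 on array 1 and in Cy3 on array 2, so there were 8 arrays. The 2 arrays of a pool hold the same RNA, and their spread is technical.

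Both channels stood well above background for 44.3% to 64.7% of features, depending on the array. With every ratio turned to LO over control, the 2 arrays of a pool correlated at r = -0.72 to -0.60 across probes. Arrays of the same dye orientation from different pools correlated at r = 0.45 to 0.71. A probe-specific difference between the dyes thus ran through all tissues, and means of both orientations are given below for that reason. The SD over the arrays of a pool holds this dye difference. Markers of hepatocytes, enterocytes and spleen lymphocytes fitted the labels, apart from *Apoa1*. *Cd79b* of B cells read 17213 to 21663 in the spleen, and *Fabp2* of enterocytes 87338 to 159786 in the small intestine. *Alb* of hepatocytes read 131955 to 258556 over its 3 probes in the liver, where *Ttr*, *Fga* and *Cps1* were also highest. *Apoa1*, listed for hepatocytes, read 84456 to 123310 in the small intestine and 88947 to 116542 in the liver, so it did not tell them apart. The small intestine arrays also read all 5 markers of pancreatic acinar cells at 32954 or more, with *Amy2a3* at 71859 to 120699.

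The promoters of these genes are shown first, since the loop works through such elements. RefSeq (GRCr8) gave 12 windows of 300 bases, from 250 before to 50 after the start of transcription, for the 10 genes. They were searched on both strands for the E-box CACGTG, the D-box TTATGTAA and the ROR element. No window held more than 1 kind of motif. The E-box stood in 6.42% of all 33469 promoter windows, the D-box in 0.893% and the ROR element in 0.245%. Of the 12 windows, 3 held the E-box (*Nr1d1*, *Tef* and *Bhlhe40*), 1 the D-box (*Per2*) and 1 the ROR element (*Arntl*). The windows of *Per1*, *Per3*, *Clock*, *Nr1d2* and *Dbp*, and 1 of the 2 windows of *Nr1d1*, held none of these letters. A window for each kind of motif follows, 5′ to 3′ on the strand of the gene, with the motif in capitals. The ROR element of *Arntl* started 19 bases before the start of transcription (chr1:176766078-176766377, plus strand). The D-box of *Per2* started 192 bases before it (chr9:99496944-99497243, minus strand), and the E-box of *Nr1d1* 191 bases before it (chr10:84229405-84229704, minus strand).
*Arntl*: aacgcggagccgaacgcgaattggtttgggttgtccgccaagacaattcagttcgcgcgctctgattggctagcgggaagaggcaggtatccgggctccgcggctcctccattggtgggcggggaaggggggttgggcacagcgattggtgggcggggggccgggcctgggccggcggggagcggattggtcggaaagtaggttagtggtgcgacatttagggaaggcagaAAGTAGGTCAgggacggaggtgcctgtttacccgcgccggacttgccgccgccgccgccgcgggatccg
*Per2*: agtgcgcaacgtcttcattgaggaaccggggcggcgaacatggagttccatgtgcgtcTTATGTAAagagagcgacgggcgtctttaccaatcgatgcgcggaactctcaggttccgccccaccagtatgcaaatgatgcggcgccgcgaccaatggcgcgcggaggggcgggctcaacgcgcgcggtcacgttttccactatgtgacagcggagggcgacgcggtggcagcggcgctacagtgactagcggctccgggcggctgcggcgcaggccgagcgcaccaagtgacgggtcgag
*Nr1d1*: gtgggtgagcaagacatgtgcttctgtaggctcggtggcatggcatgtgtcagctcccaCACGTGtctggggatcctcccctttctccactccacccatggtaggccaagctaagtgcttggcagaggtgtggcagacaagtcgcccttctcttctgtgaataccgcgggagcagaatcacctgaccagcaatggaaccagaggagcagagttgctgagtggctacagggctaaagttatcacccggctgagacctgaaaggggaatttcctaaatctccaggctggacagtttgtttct

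Of the 10 genes, 9 passed the filter on dim probes (a channel well above background on 2 arrays or more), as did 30620 of all probes. *Per3* did not pass with either probe, and *Nr1d2* passed through 1 array of the small intestine and 1 of the spleen. No clock gene passed limma's test at an adjusted p of 0.05 in any of the tissues or across the 3, and neither did any other probe (0% of probes called in each). The smallest adjusted p of a clock gene was 0.83. At an unadjusted p below 0.05, *Dbp* and *Nr1d1* were below it in the small intestine, where 3.94% of all probes were, and *Dbp* and *Per2* in the liver, where 5.81% were. None of the 9 was below it in the spleen (4.26% of all probes) or across tissues (5.25%). None reached a 1.5-fold difference in the mean of both orientations, against 2.54% (small intestine), 2.46% (spleen) and 1.59% (liver) of all probes. A ratio of 1.5 or 0.75 with an error-model P below 0.01, both required on every array of a tissue, was met by none of the 9, and by 0.0294%, 0.0196% and 0.0131% of all probes. These are the thresholds of the study, but holding them to every array is a stricter reading chosen here.

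No clock gene was higher in LO in all 4 pool comparisons, which 6.33% of all probes were, and 1, *Bhlhe40*, was lower in all 4, which 6.83% were. These counts are near those of all probes, and no difference of a clock gene between 2 tissues passed limma's test (adjusted p from 0.99 to 1). In the small intestine 4 of the 9 had a mean above 0 and 5 below, against 5 and 4 in spleen. In the liver 8 were below 0 and *Nr1d2* was at exactly 0. The median log2 ratio of LO over control of the 9 was -0.01 for the small intestine, 0.03 for spleen and -0.10 for liver, beside medians of 0.00 over all probes in each. The same sign on every array of a tissue was seen for 4 of 9 in small intestine (26.6% of all probes), 2 of 9 in spleen (30.8%) and 2 of 9 in liver (6.13%).

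**Figure D1:**
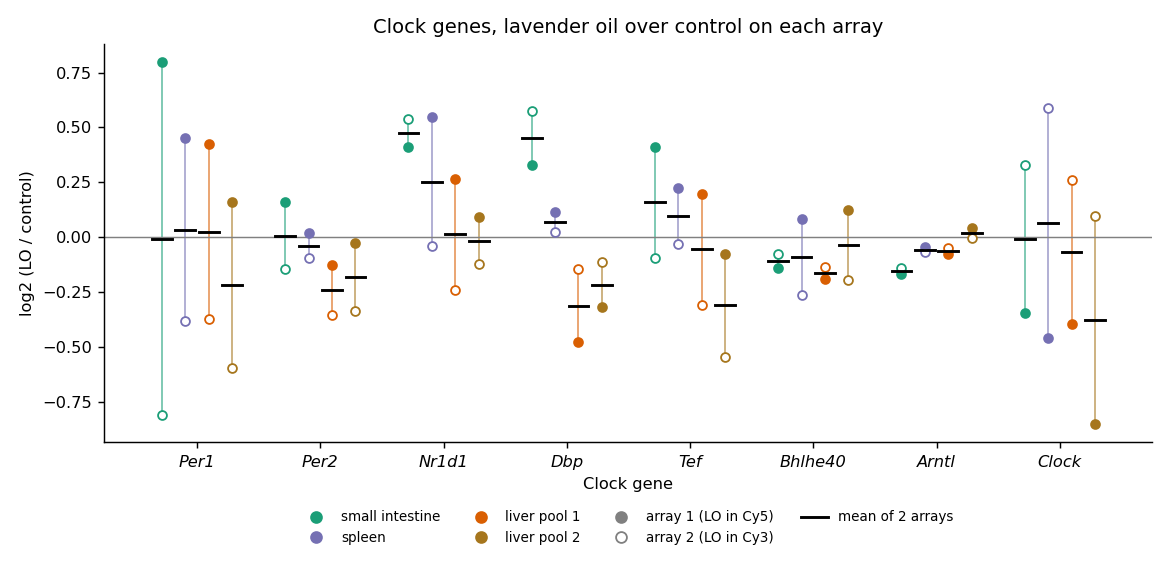
Log2 ratio of LO over control (vertical axis) of 8 clock genes on each array, with LO in Cy5 (filled) or Cy3 (open), by pool comparison; bars are means of 2 arrays. *Dbp* lies above 0 on both small intestine arrays and below 0 on all 4 liver arrays, and *Per1* and *Clock* change sign with the dye in every pool; *Nr1d2* and *Per3*, dim on nearly all arrays, are left out.

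*Dbp*, the D-box activator whose transcript swings most widely in many tissues, had the largest difference between tissues of the 9, not past the test. In the small intestine its signal was 355.4 in control and 445.8 in LO RNA on array 1, and 271.2 and 403.5 on array 2. LO was the higher on both arrays, with log2 ratios of 0.33 and 0.57, and both LO signals stood above both control signals. The mean was 0.45 ± 0.17 (SD, 2 arrays of 1 pool), a ratio of 1.37, with a limma unadjusted p of 0.026 and an adjusted p of 1. In the spleen the signals were 1039.3 in control and 1127.0 in LO RNA on array 1 and 844.6 and 857.7 on array 2, with a mean log2 ratio of 0.07 ± 0.07 (SD, 2 arrays). This difference was no larger than the spread between the 2 arrays. In the liver the control signals were 388.3 and 383.4 in pool 1 and 355.5 and 308.1 in pool 2. The LO signals were 279.1 and 346.5 in pool 1 and 285.3 and 284.5 in pool 2, so that LO was the lower on all 4 arrays. The log2 ratios were -0.48 and -0.15 in pool 1 and -0.32 and -0.11 in pool 2. Their mean was -0.26 ± 0.17 (SD, 4 arrays of 2 pools), a ratio of 0.833, with a limma unadjusted p of 0.038 and an adjusted p of 0.83. With normexp and loess the means were smaller, at 0.28 (small intestine) and -0.16 (liver). The log2 ratio in the small intestine minus that in the liver was 0.71 (SE 0.10, unadjusted p = 0.015, adjusted p = 0.99 over all probes by limma).

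*Nr1d1*, the repressor of *Arntl*, was higher in LO on both small intestine arrays. The signals were 186.6 in control and 248.0 in LO RNA on array 1, and 141.1 and 204.7 on array 2. Both LO signals stood above both control signals, and the mean log2 ratio was 0.47 ± 0.09 (SD, 2 arrays), a ratio of 1.39 (limma unadjusted p = 0.017, adjusted p = 1), which fell to 0.23 with normexp and loess. In the spleen the 2 arrays disagreed. The log2 ratio was 0.55 on array 1 and -0.04 on array 2, with signals of 100.7 and 114.6 in control and 147.1 and 111.4 in LO RNA. In the liver the log2 ratios were 0.27 and -0.24 in pool 1 and 0.09 and -0.12 in pool 2, above 0 wherever LO was in Cy5 and below 0 wherever it was in Cy3. Their mean was 0.00 ± 0.22 (SD, 4 arrays). The small intestine minus the liver gave 0.47 (SE 0.09, limma adjusted p = 0.99). The second of these repressors, *Nr1d2*, was not well above background in both channels on any array. It gave a deposited ratio of exactly 1 on all 4 liver arrays. Elsewhere it turned with the dye, at 1.104 and -1.43 on the small intestine arrays and 1.01 and -1.29 on the spleen arrays.

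*Arntl* is the partner of *Clock*. In the small intestine its signal was 2309.4 in control and 2057 in LO RNA on array 1 and 1926.3 and 1746.9 on array 2. LO was lower on both arrays, by log2 ratios of -0.17 and -0.14 (mean -0.15 ± 0.02, SD, 2 arrays; limma adjusted p = 1). In the small intestine *Arntl* was thus lower where *Dbp* and *Nr1d1* were higher, none of them past the test. In the spleen the ratios were -0.04 and -0.07, with signals between 1068.6 and 1259.5 in both groups. In the liver they were -0.07 and -0.05 in pool 1 and 0.04 and 0.00 in pool 2, and the mean of -0.02 ± 0.05 (SD, 4 arrays) was within the spread of the arrays. In the liver *Dbp* was lower on every array without a difference in *Arntl* beyond that spread. *Clock* itself was dim, well above background in both channels on 3 of 8 arrays, and its log2 ratio was below 0 on the 4 arrays with LO in Cy5 and above 0 on the 4 with LO in Cy3. Its means were -0.01 ± 0.48 (small intestine), 0.06 ± 0.74 (spleen) and -0.22 ± 0.50 (liver; SD, 2, 2 and 4 arrays). They were smaller than these SDs, which hold the dye difference (Cy5 over Cy3 averaged -0.42 over the 8 arrays).

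**Figure D2:**
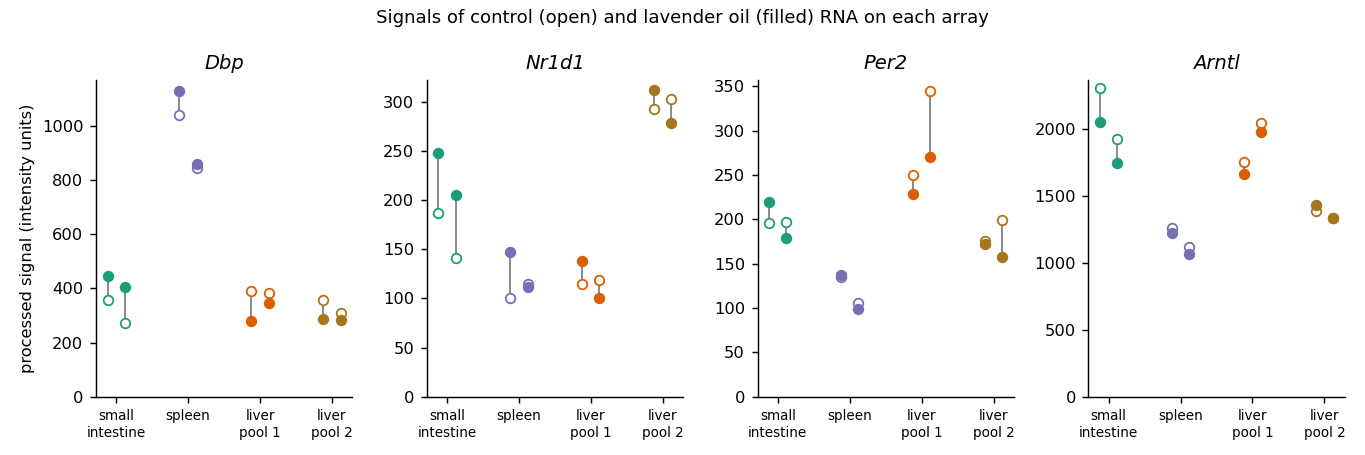
Processed signal in intensity units (vertical axis, from 0) of *Dbp*, *Nr1d1*, *Per2* and *Arntl* in control (open) and LO (filled) RNA, with a line joining the 2 channels of an array and array 1 at the left of each pair. LO signals of *Dbp* lie above control in the small intestine and below it in both liver pools, and *Nr1d1* reads 277.8 to 311.7 in liver pool 2 against 100.7 to 138.2 in pool 1.

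Of the *Per* genes, the repressors of the loop, *Per2* was lower in LO on all 4 liver arrays. Its liver signals were 249.9 and 345.0 in control against 229.0 and 269.7 in LO RNA of pool 1. In pool 2 they were 175.1 and 198.6 in control against 171.8 and 157.6 in LO RNA. The log2 ratios of -0.13, -0.36, -0.03 and -0.33 averaged -0.21 ± 0.16 (SD, 4 arrays), with a limma unadjusted p of 0.049 and an adjusted p of 0.83. The groups overlapped over the 2 pools, and on each pool the ratio was lower where LO was in Cy3. *Per2* gave 0.16 and -0.15 on the small intestine arrays and 0.02 and -0.10 on the spleen arrays, differences within the spread between arrays.

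*Per1*, the *Per* gene known to respond fastest to outside signals, moved with the dye. Its log2 ratio was 0.80 and -0.81 on the small intestine arrays, 0.45 and -0.38 on the spleen arrays, 0.42 and -0.37 in liver pool 1 and 0.16 and -0.59 in pool 2. The tissue means were -0.01, 0.03 and -0.10 in the same order, and Cy5 over Cy3 averaged 0.50 over the 8 arrays. *Per3* was not well above background in both channels on any array with its first probe and on 1 spleen array with its second. Its levels are therefore bounds at best, and its single ratios are not given.

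*Tef*, the second D-box activator, gave 0.41 and -0.09 on the small intestine arrays and 0.22 and -0.03 on those of the spleen. In the liver it gave 0.20 and -0.31 in pool 1 and -0.07 and -0.55 in pool 2, a mean of -0.18 ± 0.32 (SD, 4 arrays). The arrays of each pool differed by more than the mean differed from 0. *Bhlhe40*, a repressor at E-boxes, gave -0.14 and -0.07 on the small intestine arrays, 0.08 and -0.26 for spleen, -0.19 and -0.14 in liver pool 1 and 0.12 and -0.20 in pool 2. Its means in the 3 tissues were close to each other, at -0.11, -0.09 and -0.10, with a limma unadjusted p of 0.064 and an adjusted p of 0.94 across tissues.

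A contrast of the 2 arms of the loop set the mean log2 ratio of the 8 genes driven through E-boxes and D-boxes against that of *Arntl* and *Clock*. It takes in *Per3* and *Nr1d2*, dim as they were, and changes of opposite sign among the 8 genes cancel in their mean. It was 0.63 on array 1 and -0.34 on array 2 of the small intestine, against 0.60 and -0.56 for spleen. In the liver it was 0.25 and -0.30 in pool 1 and 0.40 and -0.27 in pool 2. All 4 arrays with LO in Cy5 were above 0 and all 4 with LO in Cy3 below, so the sign followed the dye and not the tissue. The tissue means were 0.15 ± 0.68 (SD, 2 arrays), 0.02 ± 0.82 (SD, 2 arrays) and 0.02 ± 0.36 (SD, 4 arrays), where the SD is mostly the dye. With the orientation shared by all pools taken out, the residual SD of 1 array was 0.20 (3 residual degrees of freedom). The pool means were 0.15 (small intestine), 0.02 (spleen), -0.03 (liver pool 1) and 0.06 (liver pool 2). Each is a mean of 2 arrays, which varies less than 1 array, so this SD is not the error of these means. The contrast was also taken with the 7 genes for which every array had a channel well above background. These were *Per1*, *Per2*, *Nr1d1*, *Dbp*, *Tef* and *Bhlhe40*, with *Arntl* alone in the other arm. The small intestine then gave 0.50 and 0.14, both above 0, with a mean of 0.32. The spleen gave 0.28 and -0.06 and the liver 0.09, -0.21, -0.05 and -0.31, with a mean of -0.12. By this contrast, a difference in phase with the same direction in the 3 tissues was not detectable in these arrays. How a shift of phase would move the contrast depends on the hour of dissection, which is not given, so it cannot exclude one.

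The wider clock machinery did not pass the test either. Of 19 further clock genes listed, 10 had a named probe that passed the filter, and 0 of their 13 probes were called up or down in any tissue. The genes with the largest means over the tissues were *Btrc*, *Cry1* and *Nfil3*. *Cry1*, which represses the *Clock*-*Arntl* pair, gave log2 ratios of -0.16 (small intestine), -0.02 (spleen) and -0.37 (liver; limma unadjusted p = 0.014 in the liver). *Nfil3*, which opposes DBP at D-boxes, gave -0.18, 0.00 and -0.18. *Btrc*, of the ubiquitin ligase that marks PER proteins, gave 0.73, 0.14 and -0.10, with both channels well above background on 1 small intestine array and on no liver array. The median of the 10 genes was -0.08, 0.05 and -0.03 in the same order.

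Of 16 genes that clocks are known to drive, 11 had a named probe past the filter, and 0 of 15 probes were called. *Lpin1*, a phosphatidate phosphatase, gave -1.04, 0.11 and 0.18 for small intestine, spleen and liver, with both channels well above background on 1 small intestine array. *Nampt*, of NAD synthesis, gave -0.14, -0.14 and -0.19 as the mean of 2 probes, which differed: -0.32 and 0.04 in the small intestine. *Gys2*, the liver glycogen synthase, gave -0.13, -0.05 and -0.06. The 9 glucocorticoid targets, read because these hormones set clocks, had 0 of 14 probes called. *Tsc22d3* gave -0.05, -0.10 and -0.15. *Zbtb16* (0.74, 0.48 and 0.00) and *Lcn2* (-0.10, -0.55 and 0.05) were dim, with both channels above background on no small intestine array and 1 spleen array each. Of 10 feeding and fasting genes 8 were measured, with 0 of 12 probes called. *Pck1* gave -0.19, 0.55 and 0.17 as the mean of 2 probes, which differed in the spleen, at 0.11 with the brighter probe, while the other was not well above background there. *Pdk4* gave 0.01, -0.15 and -0.12, dim outside the liver, and *Igfbp1* -0.01, 0.06 and -0.28.

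Markers of other cell types were read beside these values, and none passed limma's test, as no probe did. At a limma unadjusted p below 0.05 in the spleen were 6 of 7 hepatocyte probes and 1 of 6 pancreatic acinar probes. No enterocyte or lymphocyte marker was below it there, and 4.26% of all probes were. In the spleen 4 of 5 hepatocyte markers had a mean above 0. *Alb* was at 0.58. *Ttr* was at 0.61, from 1.23 on array 1 and -8.4e-05 on array 2, at signals of 31 to 73. *Apoa1* (0.49, bright in both channels on 1 array), *Fga* (0.70) and *Cps1* (-0.20, both on none) were dim there. In the small intestine all 5 pancreatic acinar markers had a mean below 0, between -0.43 (*Amy2a3*) and -0.15 (*Pnlip*), as had both measured enterocyte markers (*Anpep* at -0.17 and *Fabp2* at -0.04) and the B cell marker *Cd79b* (-0.12), and *Cd2* was not well above background there. Their part in the spleen and small intestine values of the clock genes was not tested. In pooled tissue, fewer cells of a type and less RNA per cell cannot be told apart.

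The levels of the clock genes in the tissues were read on a log2 scale made equal between arrays. How many of all probes stood apart between the same tissues was not counted, so these values only describe each gene. *Bhlhe40* was 9.31 ± 0.16 for liver (SD, 8 channels of 4 arrays), 8.62 ± 0.13 for small intestine (SD, 4 channels of 2 arrays) and 6.72 ± 0.15 for spleen, without overlap. *Per2* followed the same order at 8.14 ± 0.32, 7.37 ± 0.11 and 6.45 ± 0.10, also without overlap. *Dbp* ran another way, at 9.50 ± 0.06 for spleen, 8.73 ± 0.17 for liver and 8.23 ± 0.27 for small intestine. *Per1* was 6.79 ± 0.39 for liver, 5.89 ± 0.24 for spleen and 4.48 ± 0.47 for small intestine, and the 3 ranges did not overlap. *Arntl*, at 10.90 ± 0.14 for liver and 10.70 ± 0.09 for small intestine, overlapped between these and stood apart from the spleen at 9.81 ± 0.08. *Nr1d1* likewise overlapped between liver (7.93 ± 0.78) and small intestine (7.33 ± 0.28) and stood apart from the spleen (6.44 ± 0.24). *Tef* overlapped between liver (6.77 ± 0.37) and spleen (6.25 ± 0.09) and stood apart from the small intestine (4.96 ± 0.20), and *Clock* overlapped in all 3. The small intestine range of *Nr1d2*, a dim probe, overlapped both others. Its liver range (2.69 to 3.22) lay below that of the spleen (3.33 to 4.62). Some of these separations depend on the scaling. Before scaling, liver and small intestine overlapped for *Bhlhe40* (427.3 to 552.5 and 458.7 to 506.2), *Per2* and *Dbp*. Liver and spleen overlapped for *Per1* (60.7 to 120.1 and 63.0 to 99.7) and *Nr1d1*. *Arntl* read higher in small intestine (1746.9 to 2309.4) than in liver (1335.4 to 2047.6), in overlapping ranges. *Arntl* in the spleen and *Tef* in the small intestine still stood apart. Each tissue was on a slide of its own, so tissue and slide cannot be told apart.

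**Figure D3:**
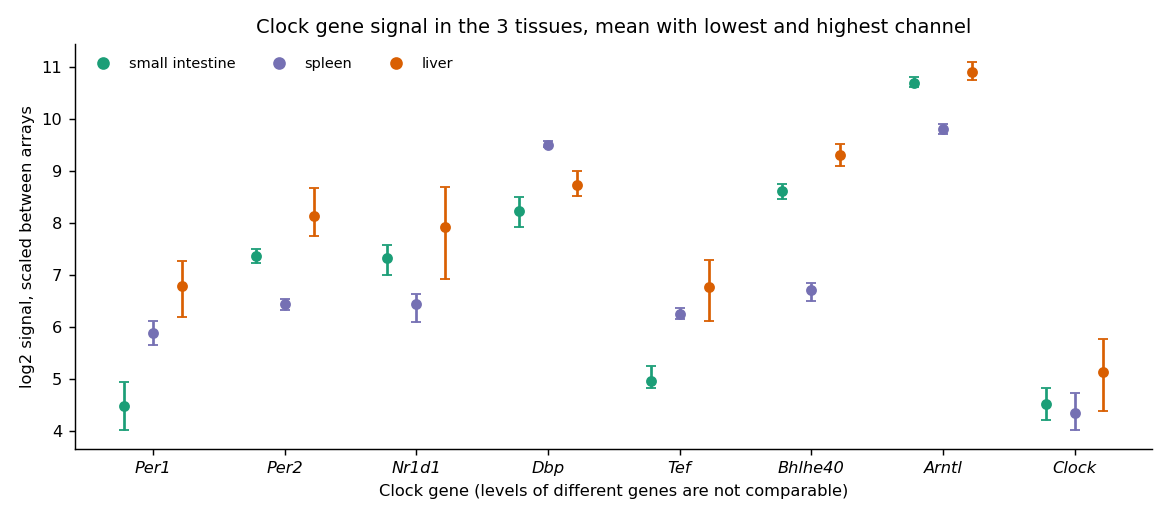
Log2 signal scaled between arrays (vertical axis) of 8 clock genes in small intestine, spleen and liver; points are means over control and LO channels and bars run from the lowest to the highest channel. The mean of *Dbp* is highest in the spleen and that of each other gene shown in the liver, and the wide liver bar of *Nr1d1* spans the 2 liver pools.

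Over the 8 tissue-by-treatment pools, the levels most like that of *Dbp*, among 5426 probes with a gene symbol that were bright on all arrays, were those of *Nup54* (Pearson r = 0.97), *Farsa* (r = 0.97) and *Wbp4* (r = 0.97). For *Arntl* they were *Hadhb*, *Fh* and *Synj2bp* (r = 0.996, 0.996 and 0.994). These r rest mostly on 3 tissues, and 274 probes were above 0.9 for *Dbp* and 525 for *Arntl*, so they describe a tissue pattern that many probes share.

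Of the 9 clock genes, 4 passed the test between the 2 liver pools. The error of this test comes from how far the pool difference varied between control and LO RNA. Both were read on the same arrays, so the SE and p-values leave out spread between arrays and in making the pools. The test is thus not comparable with that of LO against control, which none had passed. *Nr1d1* read 115.0 and 118.8 in control and 138.2 and 100.7 in LO RNA of pool 1, against 292.5 and 302.2 in control and 311.7 and 277.8 in LO RNA of pool 2. All 4 readings of pool 2 stood above all 4 of pool 1. On the scaled signal, pool 2 over pool 1 was 1.43 on the log2 scale (SE 0.07, a ratio of 2.69), with 1.44 in the control pools and 1.41 in the LO pools (limma adjusted p = 0.0198). *Per1* was higher in pool 2 by 0.55 (SE 0.10, adjusted p = 0.041), while *Per2* was at -0.52 (SE 0.07, adjusted p = 0.029) and *Tef* at -0.57 (SE 0.10, adjusted p = 0.041), both lower. *Dbp* was at -0.06 (adjusted p = 0.59) and *Arntl* at -0.25 (adjusted p = 0.086). The genes thus differed in both directions, and a difference in phase between the pools was not tested. *Nr1d1* and *Per1* were higher and *Per2* and *Tef* lower. No difference passed the test in *Dbp*, *Arntl*, *Clock* (-0.48), *Nr1d2* (-0.21) or *Bhlhe40* (0.24). With normexp and loess the differences of the 4 genes were smaller, at 1.02 (*Nr1d1*), 0.28 (*Per1*), -0.35 (*Per2*) and -0.19 (*Tef*).

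These differences are to be read against the background of the pools. Of all probes tested, 40.4% passed the same test between the pools, and 4 of 9 clock genes did. A 2-fold difference was reached by 13.4% of all probes and by 1 of 9 clock genes. The share of clock genes called is near that of all probes. The control and LO RNA of a pool were read on the same 2 arrays, so pool and array cannot be told apart, and the labels do not say which rats or which part of the liver each pool holds. With only arrays of 1 dye orientation, 0 probes passed, and *Nr1d1* gave 1.58 (array 2) and 1.27 (array 1) with adjusted p of 0.053 and 0.075. Over all probes 19.1% were higher and 21.3% lower in pool 2. Of 13 probes of further clock genes, 2 were higher and 2 lower in pool 2, among them *Csnk1e*, a kinase of PER proteins, at 1.06 with 1 probe (0.09 with the other, which did not pass), and *Cry1* at -0.48. Of 15 probes of clock-driven genes 4 were lower and 0 higher, among them *Cyp7a1*, the rate-limiting enzyme of bile acid synthesis, at -0.66. Of the other lists, 3 of 14 glucocorticoid target probes and 2 of 12 feeding and fasting probes were lower and none higher.

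**Figure D4:**
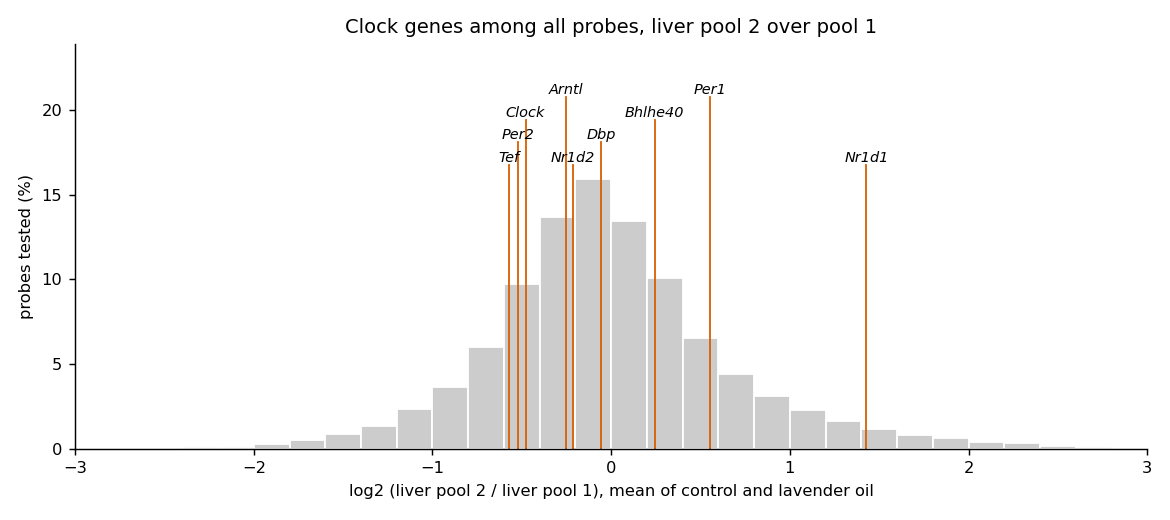
Share of the probes tested (%, vertical axis) by log2 ratio of liver pool 2 over pool 1 (horizontal axis, mean of control and LO pools), with a line at the value of each clock gene. *Nr1d1* at 1.43 lies in the upper tail, and the other 8 lie between -0.57 and 0.55, inside the bulk of all probes.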

How the data were processed

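Total RNA of 8 two-color arrays (60-mer probes, 4x44K) was analysed. The authors extracted images with Agilent Feature Extraction (version 11.0.1.1) and deposited the log10 ratio of Cy5 over Cy3 after background subtraction and LOWESS within the array. They deposited with it a p-value from an error model of the single array. The authors also deposited linear signal intensity values, processed and as medians. The series table holds the same log10 ratio, except where the scanner file has a ratio of exactly 1, and served as an alternative. The genome build of the probes is not given in the sources used here.

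Log ratios were turned to log2 LO over control. Control features and 34 non-uniform features were left out and copies of a probe averaged, which left 40979 probes. The 2 arrays of a pool were averaged, and limma (version 3.58.1, R 4.3.3) fitted a coefficient per tissue over 4 pool comparisons. The residual spread comes from the 2 liver pools alone, with 1.2 prior degrees of freedom, and the single pools of small intestine and spleen were assumed to vary like them. P-values therefore say little about rats. The fit across tissues used 3 tissue values of the same rats. P-values were Benjamini-Hochberg adjusted over 30620 probes. Levels were scaled between arrays by Aquantile. The fit of the liver pools had treatment as a term and, like the differences between tissues and the residual SD of the contrast of the arms (terms for pool and orientation), was chosen after seeing the data.

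The replicate number in the labels is the dye orientation, so it pairs arrays: deviations of same-numbered arrays from their pool mean correlated at r = 0.55 to 0.81. All 10 genes were described. From each list of related genes the 3 with the largest mean over the tissues were named. For *Dbp* and *Arntl*, the 3 probes most like them were named. Gene symbols came from RefSeq (GRCr8) identifiers, which named 10768 of 41012 probes and 52 of 74 listed genes. The genes and lists were chosen with earlier results of these data known. Precision is limited by the number of arrays. The fits were tested on simulated data, with changes larger than any mean difference of a clock gene seen here. For LO these changes were equal in all tissues, with noise below the spread of the liver arrays. The simulations checked that known changes were recovered, not that differences of the size seen here could be detected. Alternatives were normexp (offset 50) with loess, centring on the median, other filters, all 8 arrays as replicates with and without a block, single orientations, single liver pools, ratios of exactly 1 as missing, and single tissues left out. Summaries used pandas 2.3.3 and numpy 2.4.6 (Python 3.11.15), and plots matplotlib 3.10.9.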

Additional observations from a re-analysis of the deposited data

Results flagged for a closer look

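*Dbp* was higher in LO on both small intestine arrays and on both spleen arrays, and lower on all 4 liver arrays. The log2 ratio of LO over control in the small intestine minus that in the liver was 0.71 (SE 0.10), and the spleen minus the liver gave 0.33 (SE 0.10). Neither difference passed limma's test over all probes (adjusted p = 0.99 and 1, unadjusted p = 0.015 and 0.071). For *Bhlhe40* in the liver, array 1 of pool 2 (0.12) stood apart from the other arrays (-0.19, -0.14 and -0.20).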

How the results depend on the processing

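No clock gene passed limma's test for LO under any alternative run, and the lowest adjusted p was 0.197. Counts over all probes moved more. For LO, 0 probes passed in each comparison, with 1207 (small intestine), 1303 (spleen), 1779 (liver) and 1607 (across tissues) at an unadjusted p below 0.05. Normexp with loess called 32, 105, 150 and 0. With the 8 arrays as replicates, 1 probe passed in the small intestine and 1 across tissues, with the replicate block and without it, and the block changed no call of a clock gene. Without replicate 1 or 2 (the dye orientations), 0 to 148 passed across tissues. At 1.2-fold in place of 1.5-fold, 3659, 3679 and 4072 probes passed, and at 1.5-fold after normexp 6, 6 and 3. Between the liver pools normexp called 19832 probes, and 0 passed without replicate 1 or 2, against 13891 and 11203 at an unadjusted p below 0.05. Of 442 alternative LO values of the 9 genes, 405 kept their direction and 37 turned, 21 of these with a single orientation and 13 of them across tissues, which are given as counts. With a single orientation *Per1* ran from -0.81 to 0.80 (small intestine), -0.38 to 0.45 (spleen) and -0.48 to 0.29 (liver), *Tef* from -0.094 to 0.41, -0.031 to 0.22 and -0.43 to 0.062, and *Clock* from -0.34 to 0.33, -0.46 to 0.59 and -0.62 to 0.18. *Per2* ran from -0.15 to 0.16 and *Nr1d2* from -1.43 to 1.104 in small intestine. For spleen the ranges were -0.10 to 0.02 for *Per2*, -1.29 to 1.01 for *Nr1d2*, -0.040 to 0.55 for *Nr1d1* and -0.26 to 0.082 for *Bhlhe40*, and for liver *Nr1d1* ran from -0.18 to 0.18. The contrast of the arms ran from -0.34 to 0.63, -0.56 to 0.60 and -0.29 to 0.32. In the liver it turned from 0.02 to -0.04 with normexp, -0.08 without *Clock* and *Bhlhe40*, -0.12 with the 7 brighter genes and -0.03 without pool 2. Normexp turned *Clock* to 0.0098 (small intestine) and -0.00096 (spleen), *Nr1d2* to 0.24 (small intestine) and *Nr1d1* to 0.0070 (liver). *Nr1d1* in the liver was also 0.0013 after centring and 0.014 without pool 2, where *Per1* was 0.025, and *Arntl* was 0.020 without pool 1. *Nr1d2* between the liver pools turned to 0.018 with normexp and 0.046 with unscaled signals. Between the pools, 9 values of *Per1*, *Per2*, *Nr1d1* and *Tef* fell short of the threshold, 8 of them with a single orientation, and 5 of *Arntl* and *Bhlhe40* passed it. *Dbp* stayed above 0 in small intestine (0.28 to 0.57) and below 0 in liver (-0.40 to -0.13) under the alternatives run. The cause of these changes was not tested. Leaving out a liver pool left no residual spread, so those tissue values have no test. Dim signals limit *Clock*, *Nr1d2* and *Per3*.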
